A study of Eragrostis tef with 16 samples.

Results

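Annexin D7 and annexin-like protein RJ4 were each represented by a pair of genes in tef (Eragrostis tef), an allotetraploid cereal whose A and B subgenomes often carry a copy of the same gene each. The A and B copies of annexin D7 were Et_1A_007378 and Et_1B_012333, named in their IDs to chromosomes 1A and 1B. Those of annexin-like protein RJ4 were Et_9A_061676 and Et_9B_064255, on 9A and 9B. They were chosen by ID and description and not by a measured value, but with earlier results of these data known. These 4 genes were all the genes described as an annexin among the 5824 genes with values. Each description was held by exactly 2 genes, and both copies of a pair had the same best hit in the grass Setaria. The identity to that hit was 90.5% for the annexin D7 A copy and 90.7% for its B copy, and 87.8% and 88.6% for the A and B copies of RJ4, against a median of 87.0% over the 5606 genes with a hit. The identity between the copies of a pair was not computed. The proportion of reads that could not be divided between them is not given in the sources used here, so the level of a single copy is less certain than that of its pair.

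The plants grew in hydroponics at low or at optimum calcium, and root and shoot were taken as separate samples. The 16 libraries fell into 4 groups of 4: low calcium root, optimum calcium root, low calcium shoot and optimum calcium shoot. The cultivar, plant age, calcium concentrations and length of treatment were not given in the sources used here. Whether the 4 replicates of a group were grown as separate plants is not stated, so a p-value covers the spread between samples only, and that spread may be technical.

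Annexins are proteins that bind to acidic phospholipids of membranes when calcium is present, through a repeated domain. In plants they are found in the cytosol and at the plasma membrane, and in Arabidopsis annexin 1 contributes to calcium entry across the plasma membrane of root cells. Plant annexins are also studied for parts in secretion, growth of root hairs and responses to salt and drought. The RJ4 name comes from a gene first isolated from strawberry fruit.

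The deposited value of a gene is the log2 of its scaled reads plus 1, called its log2 level here. Because no transcript lengths were used, levels were not compared between different annexins. The series is labelled as non-coding RNA profiling, and whether the gene values come from messenger RNA or from small RNA reads is not given in the sources used here. The gene IDs are headed as target genes, and how the 5824 were chosen is not given either. Shares of all genes are therefore shares of this list and not of every tef gene. Reads on the 5824 genes came to 1199854 to 2019011 in low calcium root libraries, 2320585 to 3443266 in optimum calcium root, 1822392 to 2098752 in low calcium shoot and 2626551 to 2849519 in optimum calcium shoot. The low calcium libraries therefore held fewer reads in both tissues, and the part of this in the results was not tested. All low calcium libraries also carry the numbers 1 to 8 and all optimum calcium libraries 9 to 16. Within low calcium, root has 1 to 4 and shoot 5 to 8. Within optimum calcium, root has 9 to 12 and shoot 13 to 16. Neither calcium nor tissue can therefore be told apart from library number, and whether the numbers give an order of handling is not stated. The 15 shoot marker genes took 0.379% to 0.434% of reads in low calcium root and 0.395% to 0.914% in optimum calcium root, against 7.80% to 11.6% in low calcium shoot and 9.24% to 12.2% in optimum calcium shoot. The 11 root marker genes took 0.377% to 2.04% in low calcium root and 1.03% to 3.12% in optimum calcium root, against 0.157% to 0.194% in low calcium shoot and 0.110% to 0.249% in optimum calcium shoot. No marker was without reads in either tissue. Low calcium shoot replicate 4 has a title that names both tissues and was placed by its source name. Its shoot marker share lay with the other shoot libraries.

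Both copies of annexin D7 were higher in root than in shoot at each calcium level. In the deposited scaling this was about 6-fold for the A copy and about 4-fold for the B copy. Under low calcium the A copy had log2 levels of 9.50, 9.66, 9.22 and 9.43 in root, against 6.56, 7.09, 6.45 and 7.13 in shoot. With optimum calcium it had 9.66, 9.58, 10.03 and 9.60 in root, against 7.23, 6.96, 7.13 and 6.96 in shoot. Root and shoot libraries did not overlap at either calcium level. The share of all genes without overlap between root and shoot was not counted. These levels rested on 426 to 1521 reads per root library and 71 to 153 per shoot library. The difference between root and shoot was 2.64 (SE 0.17, 95% interval 2.29 to 2.998; 6.25-fold; adjusted p = 8.95e-10) under low calcium and 2.65 (SE 0.17, 95% interval 2.30 to 3.003; 6.28-fold; adjusted p = 6.6e-10) with optimum calcium, by limma over 5824 genes. Scaling by the total of gene reads gave 2.90 under low calcium and 3.10 with optimum calcium. It moved the median of all genes to 0.27 and 0.41. In bulk samples such as these, fewer cells of a type and less RNA per cell cannot be told apart.

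The B copy of annexin D7 had log2 levels of 9.52, 9.30, 9.12 and 9.34 in low calcium root, against 7.57, 7.65, 6.80 and 7.88 in low calcium shoot. With optimum calcium the levels were 9.28, 9.25, 10.15 and 9.25 in root, against 7.65, 7.07, 7.50 and 7.10 in shoot. Again no root library overlapped a shoot library, and the share of all genes for which this held was not counted. Its difference was 1.85 (SE 0.24, 95% interval 1.34 to 2.35; 3.60-fold; adjusted p = 4.28e-06, limma) under low calcium and 2.15 (SE 0.24, 95% interval 1.65 to 2.65; 4.45-fold; adjusted p = 5.29e-07) with optimum calcium. Scaling by the total of gene reads gave 2.10 under low calcium and 2.61 with optimum calcium for the B copy. Many genes of the table differed between the tissues: 56.9% of all genes passed in either direction under low calcium and 66.6% with optimum calcium. Of all genes, 28.4% passed as higher in root under low calcium and 32.9% with optimum calcium. A positive difference larger than that of the annexin D7 A copy was found for 393 genes under low calcium and for 635 genes with optimum calcium. For the B copy these numbers were 600 and 783.

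**Figure D1:**
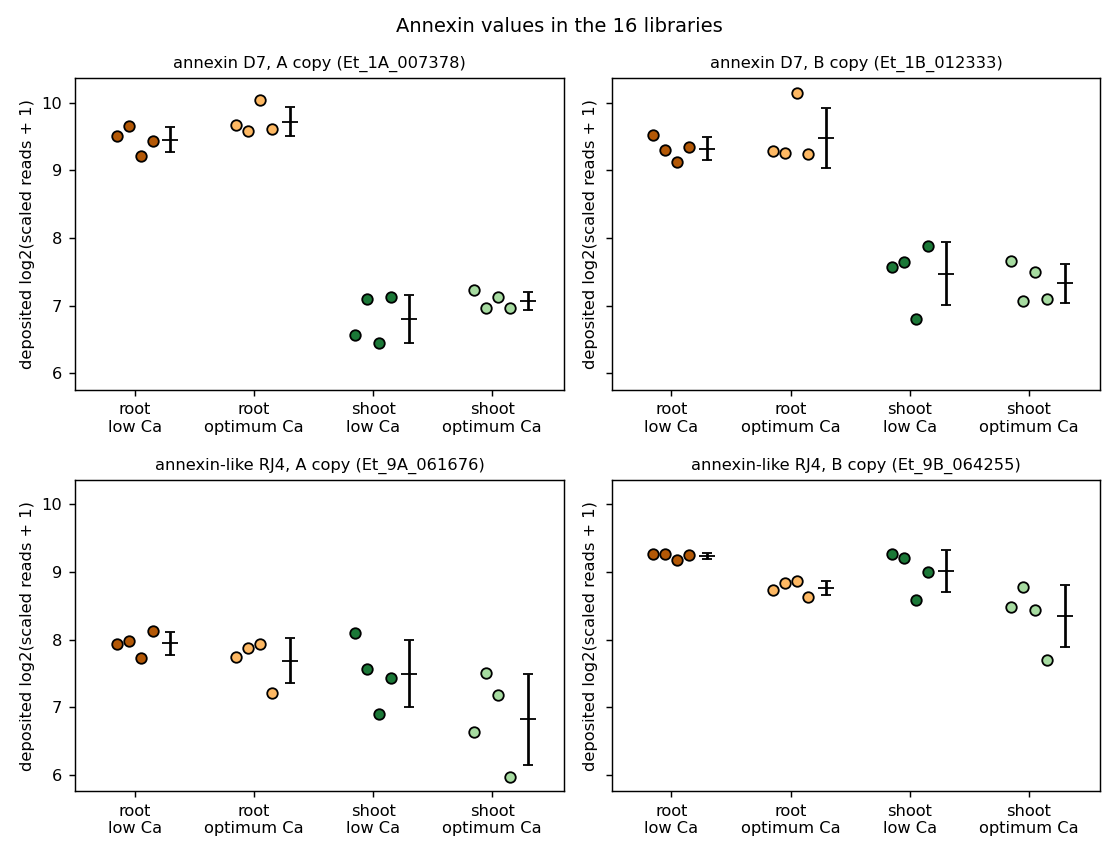
Log2 level (log2 of scaled reads plus 1) of each annexin copy in each library, in 1 panel per gene, with the mean ± SD of the 4 libraries beside the points of each group. The annexin D7 points form a high root block and a low shoot block, whereas the RJ4 points of the 4 groups lie closer together and the lowest belong to optimum calcium shoot.

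Neither copy of annexin D7 passed the test for a difference between low and optimum calcium in either tissue. In root the A copy averaged 9.45 ± 0.18 under low calcium and 9.72 ± 0.21 with optimum calcium (SD, n = 4 each). That is a difference of -0.27 (SE 0.17, 95% interval -0.62 to 0.08; adjusted p = 0.294, limma). In shoot it averaged 6.81 ± 0.35 under low calcium and 7.07 ± 0.13 with optimum calcium, a difference of -0.26 (SE 0.17, 95% interval -0.62 to 0.09; adjusted p = 0.216). The intervals leave room for a decrease of up to 0.62 in each tissue. The B copy averaged 9.32 ± 0.17 in low calcium root and 9.48 ± 0.44 in optimum calcium root, a difference of -0.16 (SE 0.24, 95% interval -0.66 to 0.34; adjusted p = 0.677). Optimum calcium root replicate 3, at 10.15, stood apart from the other 3 at 9.25 to 9.28, and without it the difference was 0.06. In shoot the B copy averaged 7.47 ± 0.47 under low calcium and 7.33 ± 0.29 with optimum calcium, a difference of 0.14 (SE 0.24, 95% interval -0.36 to 0.65; adjusted p = 0.651). The sizes of the shoot differences depended on scaling and on single libraries, with no change of call. Total scaling gave -0.07 for the A copy and 0.33 for the B copy, and leaving out a library gave -0.37 to -0.14 for the A copy and 0.0094 to 0.37 for the B copy.

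Annexin-like protein RJ4 had its highest levels in low calcium libraries, and its B copy rose in shoot under low calcium. The B copy had log2 levels of 9.27, 9.20, 8.58 and 8.99 in low calcium shoot, against 8.48, 8.77, 8.43 and 7.70 in optimum calcium shoot. These came from 315 to 561 reads per low calcium library and 243 to 441 per optimum calcium library. The groups overlapped at low calcium replicate 3, which lay below optimum calcium replicate 2. The difference was 0.66 (SE 0.19, 95% interval 0.26 to 1.07; 1.58-fold; adjusted p = 0.0130 by limma). It was the 1 annexin of the 4 that passed in shoot, where 39.4% of all genes passed and 18.5% passed as higher under low calcium. With shoot libraries alone in the fit the same difference had an adjusted p of 0.0619. The median of all genes in this comparison was -0.12 in the deposited scaling, and relative to that median the B copy was 0.78 higher under low calcium.

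In root the B copy of RJ4 had log2 levels of 9.26, 9.27, 9.17 and 9.25 under low calcium, against 8.73, 8.83, 8.87 and 8.63 with optimum calcium. Every low calcium root library lay above every optimum calcium root library. How many of all genes separated these groups was not counted, but 1648 of 5824 had an unadjusted p under 0.05 here (limma). For RJ4 B the difference of 0.47 (SE 0.19, 95% interval 0.07 to 0.88; 1.39-fold) did not pass correction over 5824 genes (adjusted p = 0.122, limma). With root libraries alone in the fit the adjusted p was 0.0181. The 2 fits take the spread from different libraries. In the fit of all 16 the shoot groups count as well, whose SDs of 0.31 under low calcium and 0.45 with optimum calcium are wider than those of the root groups, at 0.05 under low calcium and 0.11 with optimum calcium. None of the 4 annexins passed in root, where 8.33% of all genes passed.

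The A copy of RJ4 held fewer reads than the B copy and was more scattered. In low calcium shoot it had log2 levels of 8.09, 7.57, 6.89 and 7.44, against 6.63, 7.51, 7.19 and 5.97 in optimum calcium shoot. Its reads ranged from 97 to 248 in low calcium shoot and from 72 to 183 in optimum calcium shoot, and the groups overlapped. The difference of 0.67 (SE 0.30, 95% interval 0.05 to 1.30) was as large as that of the B copy but did not pass (adjusted p = 0.0800, limma). Scaling by the total of gene reads, which moved the median of all genes to 0.07, gave 0.86 with an adjusted p of 0.0322. In root the A copy had 7.93, 7.98, 7.73 and 8.13 under low calcium, against 7.74, 7.88, 7.94 and 7.20 with optimum calcium. These groups overlapped, and the difference was 0.25 (SE 0.30, 95% interval -0.37 to 0.88; adjusted p = 0.584).

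Both RJ4 copies were lowest of all in optimum calcium shoot replicate 4, at 5.97 for the A copy and 7.70 for the B copy. Within low calcium shoot both were lowest in replicate 3. Without optimum calcium shoot replicate 4 the shoot difference of the B copy was 0.45, and that of the A copy was 0.39.

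**Figure D2:**
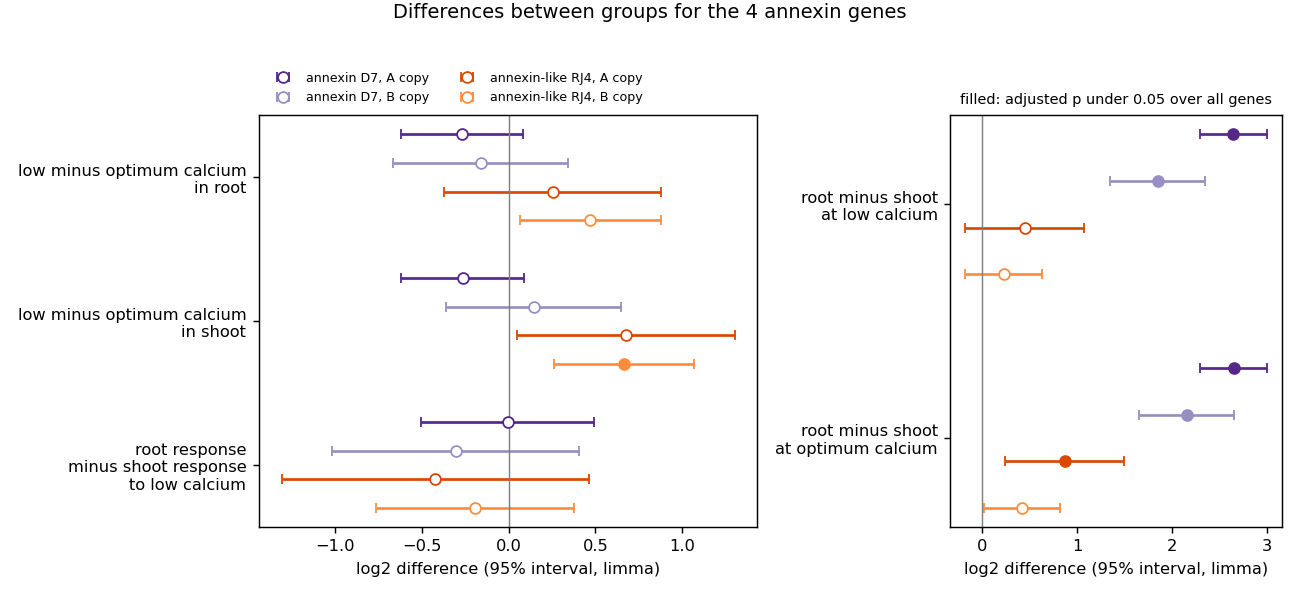
Log2 difference of each annexin copy in the 5 comparisons, with its 95% interval from limma; filled points have an adjusted p under 0.05 over 5824 genes. The annexin D7 copies are filled between root and shoot at both calcium levels, the A copy of RJ4 is filled between root and shoot at optimum calcium alone, and the B copy of RJ4 is the filled point of the comparisons between low and optimum calcium.

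Between tissues the RJ4 copies differed much less than the annexin D7 copies. Under low calcium the A copy averaged 7.94 ± 0.17 in root and 7.50 ± 0.49 in shoot (SD, n = 4 each), a difference of 0.45 (SE 0.30, 95% interval -0.18 to 1.07; adjusted p = 0.211, limma). The B copy averaged 9.24 ± 0.05 in root and 9.01 ± 0.31 in shoot, a difference of 0.23 (SE 0.19, 95% interval -0.18 to 0.63; adjusted p = 0.330). Neither passed in the deposited scaling. With total scaling both did, at 0.70 (adjusted p = 0.0447) for the A copy and 0.48 (adjusted p = 0.0419) for the B copy. Both also passed with voom, which scales by the total of gene reads as well and so is not a separate scaling. Without low calcium shoot replicate 3 the differences of the A and B copies were 0.25 and 0.08, with adjusted p-values of 0.517 and 0.737 in the deposited scaling. With optimum calcium the A copy was higher in root, at 7.69 ± 0.33, than in shoot, at 6.82 ± 0.68. The difference of 0.87 (SE 0.30, 95% interval 0.24 to 1.49; 1.82-fold; adjusted p = 0.0161) passed, although root and shoot libraries overlapped, and without optimum calcium shoot replicate 4 it was 0.58 with an adjusted p of 0.0640. With total scaling it was 1.32. The B copy averaged 8.77 ± 0.11 in root and 8.35 ± 0.45 in shoot, a difference of 0.42 (SE 0.19, 95% interval 0.01 to 0.82) that did not pass (adjusted p = 0.0636). For this copy the call turned with the scaling: median-ratio size factors gave 0.48 with an adjusted p of 0.0414, and total scaling 0.87 with 0.000725. It also rested on optimum calcium shoot replicate 4, without which it was 0.20 with an adjusted p of 0.257. Ordered by mean, both RJ4 copies ran from low calcium root through optimum calcium root or low calcium shoot to optimum calcium shoot. No pair of neighbours in that order passed a test, and optimum calcium root and low calcium shoot, which differ in both tissue and calcium, were not tested against each other.

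No annexin copy passed the test for a calcium response that differed between root and shoot. The root response minus the shoot response was -0.01 (95% interval -0.50 to 0.49; adjusted p = 0.993, limma) for the annexin D7 A copy and -0.30 (-1.02 to 0.41; adjusted p = 0.646) for its B copy. For RJ4 it was -0.42 (-1.31 to 0.46; adjusted p = 0.604) for the A copy and -0.19 (-0.76 to 0.38; adjusted p = 0.727) for the B copy. Of all genes 7.4% passed this test. The intervals are wide with 4 libraries a group, and those of both B copies and of the RJ4 A copy reach further below 0 than above it.

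The division of reads between the A and B copies was compared within each library as log2 of A minus log2 of B, which does not depend on the scaling apart from the added 1. In the annexin D7 pair the balance lay near even in root and on the side of the B copy in shoot. Under low calcium it was -0.02, 0.36, 0.10 and 0.09 in root, against -1.01, -0.55, -0.35 and -0.75 in shoot. With optimum calcium it was 0.38, 0.33, -0.11 and 0.36 in root, against -0.43, -0.11, -0.37 and -0.13 in shoot. Under low calcium no root library overlapped a shoot library, and the share of all pairs for which this held was not counted. With optimum calcium 1 root library, replicate 3, fell among the shoot libraries. The A copy held 52.2% ± 2.77 of the pair's reads in low calcium root and 38.6% ± 4.59 in low calcium shoot, and 54.1% ± 4.08 in optimum calcium root and 45.5% ± 2.79 in optimum calcium shoot (SD, n = 4 each).

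Over the 1234 A and B pairs of the table that share a description, the annexin D7 pair passed the test of a different balance between root and shoot at both calcium levels. The difference was 0.80 (SE 0.14, 95% interval 0.50 to 1.10; adjusted p = 0.000235, limma over pairs) under low calcium, where 33.8% of all pairs passed. It was 0.50 (SE 0.14, 95% interval 0.20 to 0.80; adjusted p = 0.00775) with optimum calcium, where 45.9% of all pairs passed. Between low and optimum calcium the balance of this pair differed by -0.41 in shoot (SE 0.14, 95% interval -0.71 to -0.11), which did not pass (adjusted p = 0.0688, limma over pairs), beside 12.2% of all pairs that did. It passed without low calcium shoot replicate 3 (-0.51, adjusted p = 0.0212) and without optimum calcium root replicate 3 (adjusted p = 0.0435). In root the difference was -0.11 (SE 0.14; adjusted p = 0.864), and 1.46% of all pairs passed.

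In the RJ4 pair the B copy held more reads than the A copy in all 16 libraries. Under low calcium the balance was -1.32, -1.28, -1.44 and -1.12 in root, against -1.17, -1.63, -1.69 and -1.56 in shoot. With optimum calcium it was -0.99, -0.95, -0.93 and -1.43 in root, against -1.85, -1.26, -1.25 and -1.74 in shoot. The A copy held 29.0% ± 1.93 of the pair's reads in low calcium root, 32.2% ± 3.47 in optimum calcium root, 25.9% ± 3.22 in low calcium shoot and 25.8% ± 4.20 in optimum calcium shoot. The balance differed between root and shoot by 0.45 (SE 0.16, 95% interval 0.12 to 0.78; adjusted p = 0.0230, limma over pairs) with optimum calcium. Root and shoot libraries overlapped there, and the call was lost when optimum calcium root replicate 1 (adjusted p = 0.0594), 2 (0.0647) or 3 (0.0603) or optimum calcium shoot replicate 1 (0.0911) or 4 (0.0688) was left out. Under low calcium the difference was 0.22 (SE 0.16, 95% interval -0.10 to 0.55; adjusted p = 0.295).

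Low and optimum calcium shoots did not differ detectably in the balance of the RJ4 pair, with a difference of 0.01 (SE 0.16, 95% interval -0.31 to 0.34; adjusted p = 0.984). In root it was -0.22 (SE 0.16; adjusted p = 0.683). The root response minus the shoot response of the balance was 0.30 (SE 0.20; adjusted p = 0.517) for annexin D7 and -0.23 (SE 0.22; adjusted p = 0.677) for RJ4, and 4.46% of all pairs passed that test.

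**Figure D3:**
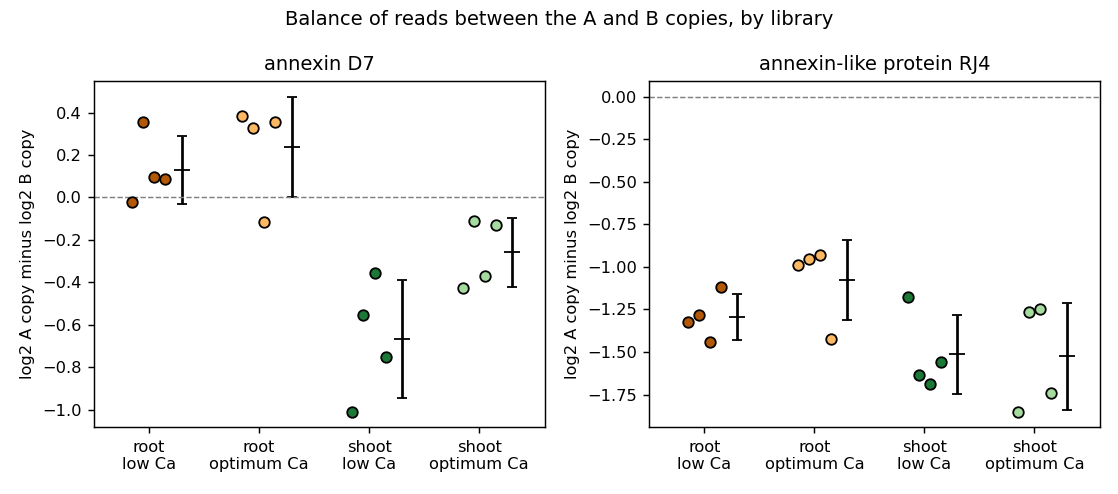
Log2 level of the A copy minus log2 level of the B copy in each library for the annexin D7 and RJ4 pairs, with group means ± SD; the line at 0 marks equal copies. The annexin D7 points lie around 0 in root and below 0 in shoot, and all RJ4 points lie below 0.

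With both copies of a pair added together, the uncertain division of reads between the copies does not enter. Reads left out, or counted for both copies, would still affect the sum, and how such reads were counted was not given. Annexin D7 took 0.0691% ± 0.00477 of gene reads in low calcium root and 0.0821% ± 0.0169 in optimum calcium root, and 0.0131% ± 0.00442 in low calcium shoot and 0.0112% ± 0.00155 in optimum calcium shoot (SD, n = 4 each). The ratio of low to optimum calcium was 0.842 in root and 1.17 in shoot, and in the deposited scaling 0.845 in root and 1.002 in shoot. RJ4 took 0.0437% ± 0.00194 in low calcium root and 0.0334% ± 0.00357 in optimum calcium root, and 0.0310% ± 0.00806 in low calcium shoot and 0.0172% ± 0.00521 in optimum calcium shoot. Its ratio of low to optimum calcium was 1.31 in root and 1.80 in shoot, and in the deposited scaling 1.32 in root and 1.55 in shoot. For RJ4 the root groups did not overlap, at 0.0418% to 0.0462% under low calcium against 0.0285% to 0.0368% with optimum calcium. The shoot groups did, at 0.0196% to 0.0386% under low calcium against 0.0111% to 0.0238% with optimum calcium. These sums are shares of the reads on listed genes and were given no test. How many other pairs kept their root groups apart was not counted.

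Other genes of calcium handling were taken from the table by their descriptions, leaving out the annexins. In low calcium shoot, 6 of 20 calcium transport genes (pumps, exchangers and channels) fell and 2 rose, with 12 that did not pass and a median difference of -0.25. Over all genes in this comparison 20.9% fell and 18.5% rose, and the 8 of 20 that passed lie near the 39.4% of all genes that did. Of 55 calcium sensing genes (calmodulins and related proteins and the kinases they work with), 23 fell, 2 rose and 30 did not pass, with a median of -0.43, beside the same 20.9% of all genes that fell and 18.5% that rose. Scaling by the total of gene reads left 12 sensing genes that fell, but it also left only 477 of all 5824 genes that fell. With voom on the recovered reads, which also scales by the total, 12 sensing genes fell as well. The sensing genes that rose numbered 1 without any 1 of the low calcium root libraries, low calcium shoot replicates 2 to 4, optimum calcium root replicates 1, 2 and 4 or optimum calcium shoot replicate 1. The transport genes that rose numbered 1 without low calcium shoot replicate 2 or optimum calcium shoot replicate 3. The median of all genes was -0.12, and that of the 4 annexins was 0.40. The annexin median lies between the annexin D7 copies, at -0.26 and 0.14, and the RJ4 copies, at 0.67 and 0.66. The transport genes that passed with the highest means over all libraries were the vacuolar cation/proton exchanger 1a gene Et_3B_028509, which loads calcium into the vacuole, and the cyclic nucleotide-gated channel genes Et_7A_051916 and Et_6B_049571. The exchanger fell by 2.55 (SE 0.35; adjusted p = 7.14e-05, limma), with a mean of 9.08 in low calcium shoot and 11.63 in optimum calcium shoot. The channel genes fell by 0.49 (adjusted p = 0.00946) and 0.74 (adjusted p = 0.0043). Among sensing genes, 3 that encode calmodulin-binding proteins 60 B or D had the highest means: Et_1B_010395 fell by 0.65 (adjusted p = 0.0107), Et_7B_053843 by 0.62 (adjusted p = 0.007) and Et_1B_012257 by 0.58 (adjusted p = 0.0496).

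In root the genes of both lists passed about as often as the 8.33% of all genes that did, of which 5.32% rose and 3% fell. Among the 20 transport genes, those that rose numbered 2 and those that fell 0, with 18 not passing and a median of 0.05. Among the 55 sensing genes, those that rose numbered 2 and those that fell also 2, with 51 not passing and a median of -0.14. The median was -0.03 over all genes and 0.05 over the 4 annexins. Both transport genes that rose encode cation/calcium exchanger 1: Et_4B_036379 by 0.90 (SE 0.25; adjusted p = 0.0390, limma) and Et_10A_001931 by 2.12 (SE 0.51; adjusted p = 0.0247). No transport gene passed as higher without low calcium root replicate 1, 2 or 4 or without optimum calcium root replicate 2 or 4. The sensing genes with the highest means that passed were that of the protein kinase CIPK9, Et_4A_032628, which fell by 1.36 (SE 0.26; adjusted p = 0.0115), and the calmodulin-like CML29 genes Et_2B_022523 and Et_2A_015077. CML29 rose by 0.76 (SE 0.22; adjusted p = 0.0450) for the first gene and by 1.27 (SE 0.20; adjusted p = 0.0038) for the second. Without optimum calcium root replicate 3, 5 sensing genes fell, and without low calcium root replicate 1, 2 or 4 or optimum calcium root replicate 4, 1 fell. The sensing genes that rose numbered 1 without any 1 of these 4 libraries, optimum calcium root replicate 1 or 2 or optimum calcium shoot replicate 1 or 2.

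**Figure D4:**
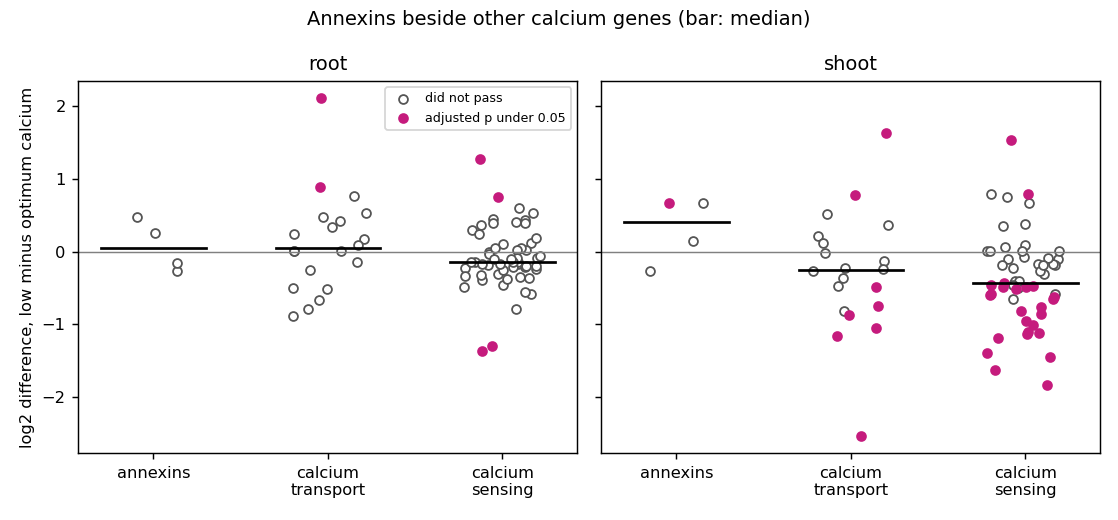
Log2 difference between low and optimum calcium of the 4 annexins, the 20 calcium transport genes and the 55 calcium sensing genes, in root and in shoot; each point is a gene and the bar is the median. In shoot the annexin median is 0.40, above the transport median of -0.25 and the sensing median of -0.43. It lies between the annexin D7 copies, at -0.26 and 0.14, and the RJ4 copies, at 0.67 and 0.66.

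The genes with the most similar patterns were found for each annexin by the root mean square difference of log2 levels over the 16 libraries, after each gene's own mean was subtracted. A smaller value is a closer pattern, and 5823 other genes were compared. For the annexin D7 A copy the nearest were Et_5A_040773, which has no description, at 0.28, a gene for a leucine-rich repeat receptor-like kinase (Et_7A_052466) at 0.29 and STAR2 (Et_9A_061575), whose rice counterpart is a part of a transporter for aluminium tolerance, at 0.30, against a median of 1.45 over all genes. Its B copy was rank 20, at 0.40. For the annexin D7 B copy the nearest genes encode oxysterol-binding protein-related protein 1B (Et_1B_011622) at 0.25, a 6-phosphogluconate dehydrogenase (Et_6B_048208), an enzyme of the pentose phosphate pathway, at 0.28 and the homeobox protein HOX32 (Et_4B_037435) at 0.31, against a median of 1.19. The A copy was rank 24. All 6 of these genes were higher in root, by 1.53 to 3.18 over both calcium levels, so the measure here mostly follows the step between tissues.

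For the RJ4 A copy, the RJ4 B copy was the second nearest of all genes, at 0.28, after a mixed-linked glucan synthase gene (Et_5B_044895) at 0.25 and before a receptor-like kinase gene (Et_3B_028113) at 0.31, against a median of 0.84. The RJ4 B copy was nearest to squamosa promoter-binding-like protein 4 (Et_1A_007407), a transcription factor of the SBP family, at 0.18. The GRAS family transcription factor scarecrow-like protein 6 (Et_1A_009056) and an uncharacterized gene (Et_1B_014264) both followed at 0.24, against a median of 0.73. In this order the RJ4 A copy was rank 13. The 3 genes nearest to the RJ4 B copy were higher under low calcium by 0.26 to 0.66 in root and by 0.38 to 0.61 in shoot, beside 0.47 and 0.66 for RJ4 B itself. They were picked for likeness over these same libraries, so similar differences follow from the choice.

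**Figure D5:**
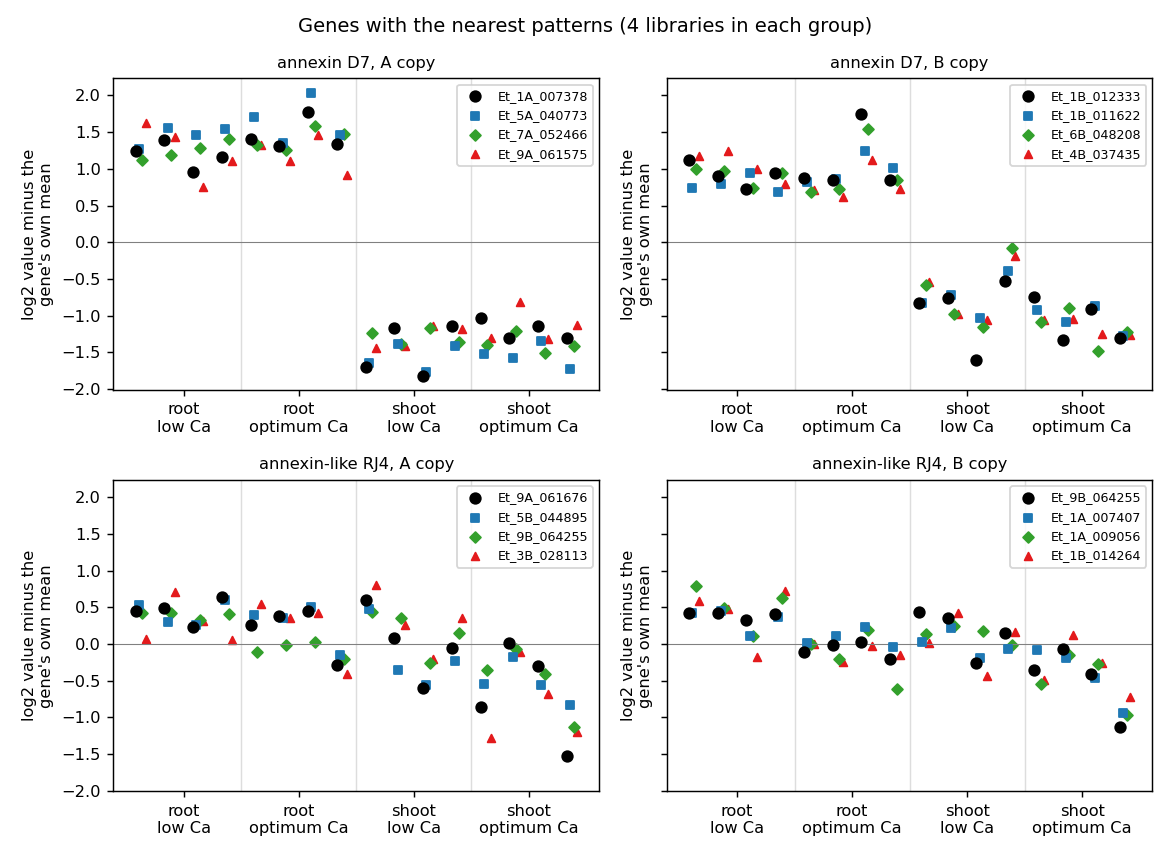
Log2 level minus the gene's own mean over 16 libraries, for each annexin copy (black) and the 3 genes with the nearest patterns, with 1 point per library and gene in each of the 4 groups. The genes around annexin D7 share its step between root and shoot, and those around RJ4 share its low point in the optimum calcium shoot libraries. They were chosen for likeness over these libraries.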

How the data were processed

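The authors deposited 1 log2 value per gene and library for 5824 genes, with the percent identity of each gene to its best grass hit, per the file headers. A further 5634 IDs have no values, and 16 per-sample columns of small RNA length counts were not used. The optimum calcium columns carry an unexplained letter H in front. The aligner, genome build and counting were not given in the sources used here. After 2 was raised to each deposited value and 1 subtracted, the results of a library were whole multiples of a single step in 100% of 93184 cases (tolerance 0.1 of a step), so whole reads were recovered.

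Group means of all 16 libraries were fitted with limma (intensity trend) and adjusted by Benjamini-Hochberg over all genes, at a threshold of 0.05. The pseudocount of 1 understates fold changes of low genes. A and B pairs, 1234 in all, were fitted likewise on log2 A minus log2 B. Changes were coded low minus optimum calcium, root minus shoot and A minus B. The scripts were tested on simulated data. The members, lists and tests were chosen with earlier results of these data known. Named genes were the 4 annexins, the 3 nearest patterns to each, and up to 3 members per list and calcium comparison that passed, by mean over 16 libraries. Alternatives were median-ratio or total scaling, a pseudocount of 0.1, a filter (10 CPM or more in 4 libraries), voom, no trend, 1 tissue alone, a replicate block and leaving out each library. Voom was run with the total of gene reads as library size, so it shares the scaling of the total setting. Python 3.11.15 (numpy 2.4.6, pandas 2.3.3, scipy 1.17.1, matplotlib 3.10.9) and R 4.3.3 (limma 3.58.1) were used.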

Additional observations from a re-analysis of the deposited data

Results flagged for a closer look

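In 4 of the 24 sets of 4 libraries tested (6 quantities in 4 groups), 1 library lay apart from the others by Dixon's 95% critical value for the gap over the range. Chance gives about 1 in 20. The annexin D7 B copy had a log2 level of 10.15 in optimum calcium root replicate 3, with a gap of 0.961 of the range. In the same library the log2 of A minus B of this pair was -0.11, with a gap of 0.886. The RJ4 B copy had 9.17 in low calcium root replicate 3, with a gap of 0.845, in a group whose SD was only 0.05. The log2 of A minus B of the RJ4 pair was -1.43 in optimum calcium root replicate 4, with a gap of 0.892.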

How the results depend on the processing

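Of the tested values of the 4 genes and both pairs, 232 kept direction and call under the other settings, 10 passed that had not and 2 no longer passed. The A copy of RJ4 passed with total scaling and with voom in shoot under low calcium (0.86, adjusted p = 0.0322, and 0.88, 0.0379) and between root and shoot under low calcium (0.70, 0.0447, and 0.71, 0.0366). The B copy of RJ4 passed between root and shoot under low calcium with total scaling (0.48, 0.0419) and voom (0.48, 0.0431). With optimum calcium it passed with median-ratio (0.48, 0.0414) and total scaling (0.87, 0.000725) and voom (0.87, 0.000783). Total scaling moved the median of all genes between root and shoot to 0.27 under low calcium and 0.41 with optimum calcium. Voom also scales by the total, so its calls that match total scaling are not a separate check. With 1 tissue in the fit the B copy of RJ4 had 0.47 (0.0181) in root and 0.66 (0.0619) in shoot. With the replicate block the RJ4 balance between root and shoot with optimum calcium was 0.45 (0.0593). The cause of these changes was not tested. The filter of 10 CPM removed 0 genes, so it tested nothing, and its unchanged values are counted among the 232.

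Replicate numbers showed no clear pairing of low with optimum calcium libraries. Deviations at the same number correlated at -0.405 to 0.0808 in root and -0.0517 to 0.247 in shoot (4 pairs each). Nor was a clear pairing of root with shoot libraries seen, at -0.205 to 0.302 under low calcium and -0.00333 to 0.242 with optimum calcium (checked after seeing the data). Some libraries correlated best with their own number and others did not, so these few correlations cannot exclude a pairing. Apart from the RJ4 balance above, the block changed no call of the 4 genes and both pairs, and a block shared by root and shoot (added after seeing the data) changed none of their calls between root and shoot.

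With each library left out, 456 values kept direction and call, 12 reversed, 6 newly passed and 6 no longer passed. Many of the 456 could not have changed direction. Leaving out a library of a group outside a comparison changes the spread but not the difference. None of the 12 that reversed had passed. The ranges that held a change ran from -0.12 to 0.10 for the response difference of the annexin D7 A copy, -0.24 to 0.06 for the annexin D7 B copy in root and -0.33 to 0.023 for the response difference of the RJ4 B copy. They ran from 0.39 to 0.90 for the RJ4 A copy in shoot, 0.58 to 1.10 for it and 0.20 to 0.56 for the RJ4 B copy between root and shoot with optimum calcium. In the balance of copies they ran from -0.51 to -0.29 for annexin D7 in shoot, -0.10 to 0.10 for RJ4 in shoot and 0.34 to 0.57 for RJ4 between root and shoot with optimum calcium. Leaving out low calcium shoot replicate 3 or optimum calcium shoot replicate 2 brought the RJ4 A copy past the threshold in shoot, with adjusted p-values of 0.0275 and 0.0273. The RJ4 B copy in shoot had 0.45 to 0.81 and adjusted p-values of 0.00341 to 0.0410. Pair sum ratios of low to optimum calcium (chosen after seeing the data) ranged from 0.812 to 0.939 and 1.01 to 1.33 for annexin D7 in root and in shoot, and from 1.25 to 1.36 and 1.61 to 2.06 for RJ4.

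For the lists (settings chosen after seeing the data), transport genes that rose in root numbered 1 with the block or voom, and 0 to 3 with a library left out. Transport genes that fell in root numbered 1 with 1 tissue, and 0 to 1. Transport genes that rose in shoot numbered 1 with the block, and 1 to 3, and those that fell 5 to 6. Sensing genes that rose in root numbered 4 with 1 tissue and 1 with no trend or the block, and 1 to 2. Those that fell in root numbered 1 with voom, and 1 to 5. In shoot those that rose numbered 1 with 1 tissue or the block, and 1 to 3, and those that fell 12 with total scaling or voom, and 17 to 23.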

Other observations

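Within a single tissue the rank of the other copy by likeness mostly changed from that over all 16 libraries. The root mean square differences between copies were themselves smaller within a tissue. There each gene's own mean was taken within the tissue, which removes the step between tissues. Values no larger on average therefore follow from the measure. For annexin D7 they were 0.183 in root and 0.284 in shoot, against 0.402 over 16 libraries. For RJ4 they were 0.198 in root and 0.240 in shoot, against 0.277. Seen from the RJ4 A copy, the RJ4 B copy was the second nearest gene over the 8 shoot libraries, at a root mean square difference of 0.240 against a median of 0.770 over all genes. Over the 8 root libraries it was rank 123, at 0.198 against a median of 0.423. Seen from the RJ4 B copy, the A copy was rank 31 in shoot and rank 313 in root. Between the annexin D7 copies the ranks were 234 in root and 393 in shoot from the A copy, and 66 in root and 81 in shoot from the B copy. The 6-phosphogluconate dehydrogenase gene Et_6B_048208 near the annexin D7 B copy and the mixed-linked glucan synthase gene Et_5B_044895 near the RJ4 A copy were also among the 3 nearest genes in root. These are descriptions over few libraries and were given no test.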
